A study of Mus musculus with 54 samples.

Results

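The collagen genes of the mouse were followed across 3 brain regions and 2 Mbd5 genotypes. The members were the protein-coding genes whose symbol in the GRCm38 annotation is Col, a number, the letter a and a second number. Of the 47069 gene rows of the count table, 44 met this rule. Poly(A) RNA was sequenced from the cortex, striatum and cerebellum of 18 mice, 10 Mbd5+/GT and 8 wild-type (WT) littermates, giving 54 libraries, 1 from each region of each mouse. The mice were 8 weeks old and of a C57BL/6 background. The Mbd5+/GT mice were heterozygous for a pU-21B gene trap that sits in the second intron of Mbd5 and leaves a hypomorphic allele, so they model reduced rather than absent Mbd5. Both sexes were used. The mice came from 3 litters, of which litter 2 had a single WT mouse (1 of 5). Per the labels, all samples of a tissue were gathered on 1 day, so region and collection day cannot be told apart. The striatum libraries of 2 WT mice were labelled as repeated.

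Collagens are the main structural proteins of the extracellular matrix, and each molecule is a triple helix of alpha chains that may come from 1 gene or several. Fibrillar chains build the fibrils of connective tissue, type IV chains the network of basement membranes, and type VI chains the beaded filaments that lie between cells and fibrils, while fibril-associated collagens with interrupted triple helices (FACITs) bind to fibril surfaces, transmembrane collagens sit in the plasma membrane and multiplexins decorate basement membranes. The brain parenchyma holds little fibrillar collagen. Its collagens are known mostly from blood vessel walls, the meninges and the choroid plexus, and some neurons make transmembrane and fibril-associated chains. The 44 members were 11 fibrillar chains, 9 FACIT chains, 6 type IV chains, 6 type VI chains, 4 transmembrane collagens, 3 short-chain network collagens (Col8a1, Col8a2 and Col10a1), 2 multiplexins (Col15a1 and Col18a1), the anchoring fibril gene Col7a1, and Col26a1 and Col28a1, which were put in no class.

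Between 25295973 and 49027399 reads per library fell on genes. Levels are given as CPM, the counts scaled to library size with TMM factors, divided by the exon length of the gene in kb, so that genes can be compared with each other. Some libraries stood apart from others of their region in the summed CPM of marker genes. The markers of the granule and Purkinje cells of the cerebellum summed to 201 in the cerebellum library of Mbd5+/GT mouse M755 and 1540 in that of WT mouse M754, against a median of 4855 over the cerebellum libraries, and the oligodendrocyte markers summed to 26968 and 16046 in these 2, the highest sums of that region. The striatal neuron markers were below 0.5 times the median of striatum in 5 striatum libraries, those of Mbd5+/GT mice M755, M756 and M763 and of WT mice M754 and M761, and lowest in WT mouse M754 with 126 against a median of 2516. The choroid plexus markers were above 2 times the median of the region in 7 cerebellum, 5 striatum and 5 cortex libraries. All 5 of these cortex libraries came from Mbd5+/GT mice (M755, M756, M758, M764 and M766). In cortex the choroid plexus markers summed to 203 to 2211 in Mbd5+/GT libraries and 241 to 552 in WT libraries. No choroid plexus marker was at 0 in any library. Some results are therefore also given without these libraries, for single genes or as counts of members called. Against the region labels, the neuronal markers stood as follows: 7 of 7 granule and Purkinje cell markers were higher and 6 of 6 striatal neuron markers lower in cerebellum than in either other region, and 4 of 6 cortical neuron markers were higher in cortex than in striatum. Markers of the neighbouring region also varied. Striatal neuron markers summed to 184 to 841 in Mbd5+/GT cortex (median 393) and 117 to 1293 in WT cortex (median 859). Cortical neuron markers summed to 43.1 to 1409 in Mbd5+/GT striatum and 287 to 1015 in WT striatum. No library was set aside for these sums, and their part in the results was not tested.

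Several members are neighbours in the genome. Col4a1 and Col4a2 lie head to head on chromosome 8 (GRCm38, 11198423 to 11312826 on the minus strand and 11312805 to 11449287 on the plus strand), so that their first exons share 22 bases. Col4a3 and Col4a4 on chromosome 1 are divergent with 72 bases between their start sites, and Col4a5 and Col4a6 on the X chromosome are divergent with 1309. Col6a2, Col6a1 and Col18a1 follow each other on the minus strand of chromosome 10, with 103 kb and 440 kb between start sites, and Col6a6, Col6a5 and Col6a4 follow each other on chromosome 9. RefSeq promoter sequence of build GRCm38.p6 was at hand for 35 of the 44 members, in 38 windows. The 250 bases before a RefSeq start site are shown for genes on which the results below turn. For Col25a1 and Col27a1 these bases lie inside the gene of the annotation used for positions, which begins at 130131501 and 63214004. Col18a1 and Col27a1 were higher in cerebellum than in both other regions, Col6a2 and Col25a1 were lower, and Col8a1 and Col8a2 varied together across mice. The stretch shared by the first exons of Col4a1 and Col4a2 is shown because both genes were lower in cerebellum than in the other regions. Capitals mark 3 motifs searched on both strands, the GC box (GGGCGG or CCGCCC), the CCAAT box (CCAAT or ATTGG) and the TATA box (TATAAA or TTTATA).
Col18a1, chr10:77166531-77166780, minus strand: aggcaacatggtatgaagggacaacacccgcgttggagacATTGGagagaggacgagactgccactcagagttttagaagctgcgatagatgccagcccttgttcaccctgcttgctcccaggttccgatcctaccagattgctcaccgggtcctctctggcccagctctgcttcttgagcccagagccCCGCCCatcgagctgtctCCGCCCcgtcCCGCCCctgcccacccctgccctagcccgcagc
Col27a1, chr4:63215162-63215411, plus strand: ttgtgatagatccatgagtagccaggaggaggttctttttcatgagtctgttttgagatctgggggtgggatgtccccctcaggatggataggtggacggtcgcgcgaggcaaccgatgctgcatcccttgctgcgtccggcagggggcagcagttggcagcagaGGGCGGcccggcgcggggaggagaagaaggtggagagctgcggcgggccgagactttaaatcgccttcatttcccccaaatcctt
Col6a2, chr10:76623631-76623880, minus strand: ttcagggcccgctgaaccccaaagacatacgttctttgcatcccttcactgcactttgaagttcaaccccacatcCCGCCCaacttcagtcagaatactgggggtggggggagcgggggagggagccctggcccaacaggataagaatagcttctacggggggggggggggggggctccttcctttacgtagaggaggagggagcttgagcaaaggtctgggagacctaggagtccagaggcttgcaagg
Col25a1, chr3:130180595-130180844, plus strand: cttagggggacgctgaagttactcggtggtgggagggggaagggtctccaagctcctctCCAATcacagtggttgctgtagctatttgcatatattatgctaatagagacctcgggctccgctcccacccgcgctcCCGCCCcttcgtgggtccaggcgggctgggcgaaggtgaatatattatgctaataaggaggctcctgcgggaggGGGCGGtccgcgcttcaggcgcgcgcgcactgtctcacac
Col8a1, chr16:57754738-57754987, minus strand: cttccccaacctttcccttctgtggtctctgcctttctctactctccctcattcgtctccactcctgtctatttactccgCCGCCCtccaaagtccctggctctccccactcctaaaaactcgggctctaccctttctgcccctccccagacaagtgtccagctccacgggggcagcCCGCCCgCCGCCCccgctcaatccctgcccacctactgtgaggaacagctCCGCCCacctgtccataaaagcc
Col8a2, chr4:126286544-126286793, plus strand: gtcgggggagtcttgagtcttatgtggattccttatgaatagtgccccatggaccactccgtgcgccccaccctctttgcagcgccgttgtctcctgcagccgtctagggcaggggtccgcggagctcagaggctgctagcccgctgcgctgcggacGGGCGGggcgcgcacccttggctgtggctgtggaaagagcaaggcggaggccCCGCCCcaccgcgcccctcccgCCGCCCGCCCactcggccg
Col4a1 and Col4a2 shared bases, chr8:11312805-11312826, plus strand: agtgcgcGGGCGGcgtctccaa

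The GC box was in 22 of the 38 member windows (57.9%) and in 32.7% of all 32851 windows of that length, the CCAAT box in 34.2% against 33.8%, and the TATA box in 13.2% against 12.4%. Of the windows shown, those of Col8a1 and Col8a2 each held 4 GC boxes, that of Col18a1 held 3 and a CCAAT box, and that of Col25a1 held 2 and a CCAAT box. Col18a1 had a second window, not shown (chr10:77113706-77113955), with 0 matches of any motif. The second window of Col6a2 (chr10:76623405-76623654) held 3 GC boxes, against 1 in that shown. None of the 6 windows shown held a TATA box. A match describes the letters of the window and does not show a bound factor.

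A handful of genes gave most of the collagen RNA of cortex and striatum. Summed over members, the level was 115 ± 7.70 (SD, n = 8) CPM per kb in WT cortex, 131 ± 29.8 in WT striatum and 88.0 ± 6.87 in WT cerebellum, and the 5 highest members made up 56.4%, 63.7% and 48.9% of it. In cortex and striatum these were the type VI chain Col6a1, the main basement membrane chains Col4a1 and Col4a2, the FACIT chain Col9a3 and the fibrillar chain Col11a2. Col6a1 alone stood at 29.2 ± 6.7 CPM per kb in WT cortex and 43.0 ± 18 in WT striatum, above every other member. In cerebellum the 5 were Col9a3 (15.6 ± 4.1), Col18a1 (14.5 ± 5.0), Col5a1, Col9a2 and Col11a2, and the first 2 differed by less than their SD. Type VI chains made up 28.9% of the summed level in WT cortex and 37.3% in WT striatum but 4.71% in WT cerebellum, type IV chains 22.7%, 15.2% and 10.1%, and multiplexins 2.08%, 2.00% and 17.2%. The fibrillar share was 20.9%, 17.3% and 24.2%, and the FACIT share 15.7%, 19.4% and 31.7%. Type I chains, which dominate connective tissue, were low, with Col1a1 at 1.77, 1.54 and 1.57 CPM per kb. The highest members of the other classes were Col25a1 in cortex and Col23a1 in striatum and cerebellum among transmembrane collagens, Col8a2 among short-chain collagens in striatum and cerebellum and Col8a1 in cortex, and Col15a1 in cortex and striatum among multiplexins. At the other end, Col10a1, a chain of hypertrophic cartilage, had 0 to 5 counts in WT cerebellum libraries and was below the filter of the genotype test there and in striatum.

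**Figure D1:**
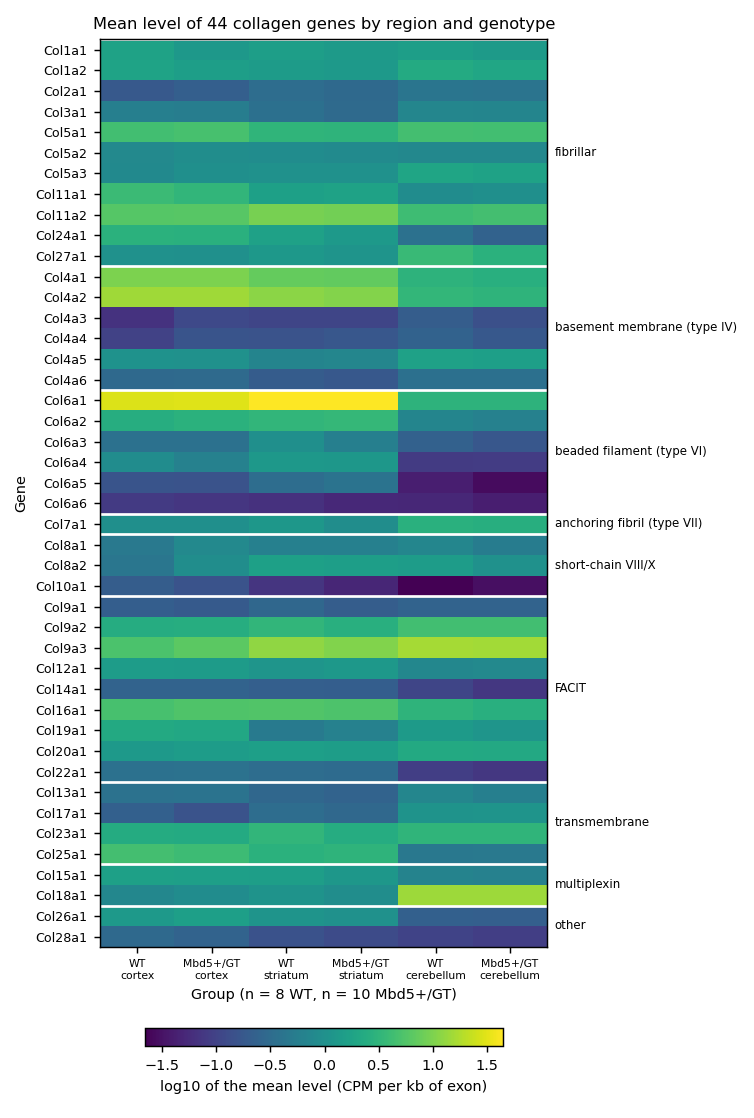
Mean level of the 44 collagen genes in the 6 groups, as log10 of CPM per kb of exon (colour), with genes in rows by class and groups in columns (8 WT or 10 Mbd5+/GT libraries each). The row of Col6a1 is brightest in cortex and striatum, with means of 29.2 and 43.0 CPM per kb in WT, and the row of Col18a1 is bright in cerebellum alone, with 14.5 CPM per kb in WT.

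The first question was how collagen expression differs between regions of the WT brain. Cerebellum differed from the other regions in most members, with 14 of 44 higher and 18 lower than in cortex (edgeR's quasi-likelihood test, adjusted p under 0.05) and 12 higher and 16 lower than in striatum. Of all 20477 genes tested, 28.2% were higher and 27.6% lower against cortex and 32.9% and 32.6% against striatum, so the 72.7% of members called against cortex exceeded the 55.8% of all genes, and the 63.6% called against striatum did not exceed the 65.5%. The median log2 difference was -0.12 and -0.17 over members and 0.020 and -0.020 over all genes. A set of 9 members was higher in cerebellum than in both other regions (Col4a5, Col5a3, Col7a1, Col9a2, Col13a1, Col17a1, Col18a1, Col20a1 and Col27a1), and 15 were lower than in both (Col4a1, Col4a2, Col6a1, Col6a2, Col6a4, Col6a5, Col10a1, Col11a2, Col14a1, Col15a1, Col16a1, Col22a1, Col24a1, Col25a1 and Col26a1). For 8 members no region pair was called (Col1a1, Col1a2, Col5a1, Col5a2, Col6a6, Col8a1, Col9a1 and Col23a1). Shares of all genes with the same joint patterns were not counted, so no background can be set beside these sets. In these bulk samples, fewer cells of a type and less RNA per cell cannot be told apart.

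**Figure D2:**
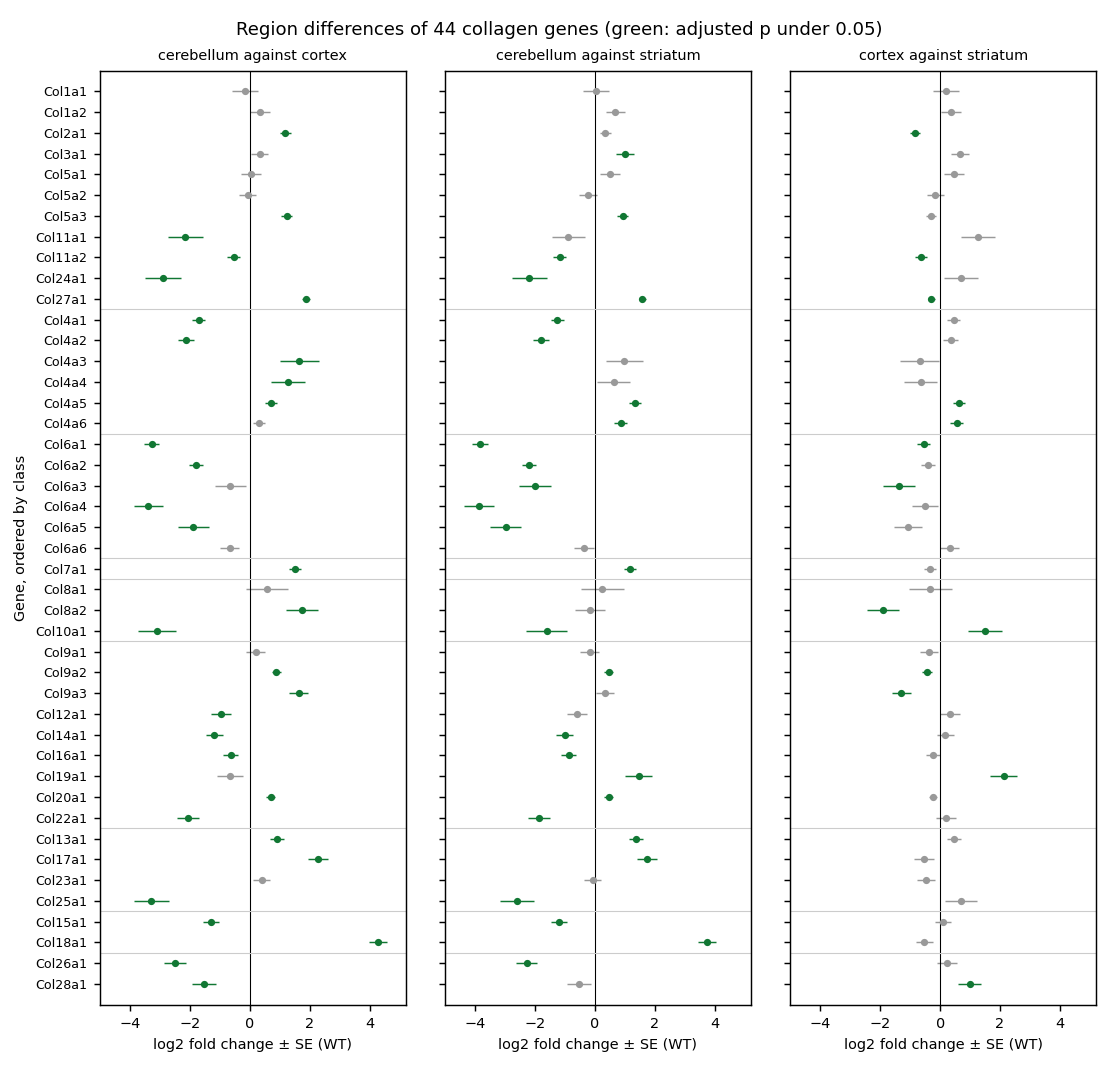
Log2 fold change of each collagen gene between regions in WT mice, with bars of 1 SE, for cerebellum against cortex, cerebellum against striatum and cortex against striatum. Genes are ordered by class and green points have an adjusted p under 0.05. All 6 type VI chains lie left of 0 in the 2 cerebellum panels, and Col18a1 lies farthest right at 4.27 and 3.74.

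The multiplexin Col18a1 carried the largest rise in cerebellum. It encodes a basement membrane collagen whose end fragment is endostatin. In WT cerebellum its level ran from 5.62 through a median of 15.6 to 19.5 CPM per kb, in cortex from 0.676 through 0.707 to 0.966 and in striatum from 0.606 through 0.992 to 1.84. Even the lowest cerebellum library, that of mouse M754, lay above every cortex and striatum library. The difference was 19.4-fold against cortex (log2 fold change 4.27 ± 0.31 SE, adjusted p = 7.2e-17) and 13.4-fold against striatum (3.74 ± 0.30, adjusted p = 2.7e-15). The other multiplexin, Col15a1, a collagen of vessel and muscle basement membranes, went the opposite way, with a log2 fold change of -1.30 against cortex and -1.20 against striatum.

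Type VI chains fell together in cerebellum. Col6a1 ran from 2.07 to 3.79 CPM per kb in the 8 WT cerebellum libraries, with a median of 2.97, against 21.6 to 39.9 in cortex and 22.6 to 74.2 in striatum, with no overlap. It was 9.67-fold lower than in cortex (log2 fold change -3.27 ± 0.26, adjusted p = 6.2e-16) and 14.2-fold lower than in striatum (-3.83 ± 0.26, adjusted p = 5.3e-18). Its partner Col6a2 was 3.48-fold and 4.61-fold lower. The third chains of the molecule were also lower. Col6a4 fell 10.5-fold and 14.7-fold and Col6a5 3.73-fold and 7.90-fold, whereas Col6a3 was called against striatum (-2.01 ± 0.54, adjusted p = 0.0011) and not against cortex (-0.65 ± 0.53, adjusted p = 0.31). Col6a6, with WT means of 0.0507 to 0.0814 CPM per kb in the 3 regions, had log2 differences of -0.68 and -0.36 that were not called.

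Type IV chains split by gene pair. Col4a1 and Col4a2, which together form the common basement membrane network of vessels, had mean levels of 9.89 and 14.7 CPM per kb in WT cortex and 7.25 and 11.5 in WT striatum, but 3.03 and 3.32 in WT cerebellum. Against cortex they were 3.26-fold and 4.43-fold lower in cerebellum (adjusted p = 1.0e-09 and 1.3e-09). No cerebellum library reached the lowest cortex library of either gene. Of the vessel markers, the endothelial list had a smaller difference, in that 1 of 7 was lower and 0 higher in cerebellum than in cortex, with a median log2 difference of -0.22, and 3 of 8 mural cell markers were lower, with a median of -0.34. The X-linked pair moved the other way. Col4a5, a chain of specialised basement membranes, was higher in cerebellum than in cortex (0.70 ± 0.19, adjusted p = 0.0018) and striatum (1.33 ± 0.20, adjusted p = 6.6e-08). Col4a6 was higher in cerebellum than in striatum (0.85 ± 0.21, adjusted p = 4.3e-04) but not called against cortex (0.31 ± 0.21, adjusted p = 0.21). The third pair, Col4a3 and Col4a4, was low everywhere, with WT means of 0.0668 to 0.240 CPM per kb. Its calls for cerebellum against cortex (1.66 ± 0.64 and 1.27 ± 0.56, adjusted p = 0.024 and 0.049) were lost with the mouse as a block (adjusted p = 0.070 and 0.10) and without the libraries high in choroid plexus markers (adjusted p = 0.35 and 0.64). Choroid plexus markers were higher in cerebellum than in cortex for 6 of 9 genes and lower for 0, and ependymal markers for 2 of 5 and 0, and their part in the result was not tested. The calls were also lost without WT mouse M761 or M762, and for Col4a4 without M757 or M765, with adjusted p up to 0.17 and 0.19, and that of Col4a4 without the libraries low in markers of their own region (adjusted p = 0.063).

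Among fibrillar chains, Col27a1 gave the most even difference. It encodes a minor chain known from cartilage. Its WT level was 3.24 to 4.84 CPM per kb in cerebellum, with a median of 3.75, 0.757 to 1.28 in cortex and 0.858 to 1.61 in striatum, and the groups of cerebellum and the other regions did not overlap. The log2 fold change was 1.88 ± 0.12 against cortex (adjusted p = 9.5e-19, the smallest of any member) and 1.58 ± 0.12 against striatum (adjusted p = 2.8e-16). Col5a3, a type V chain, rose by 1.23 and 0.92, Col2a1, the main cartilage chain, by 1.18 against cortex and Col3a1, a chain of vessel walls, by 1.00 against striatum. Col24a1 (-2.89 ± 0.60 against cortex, -2.19 ± 0.59 against striatum) and Col11a1 (-2.15 ± 0.57, adjusted p = 0.0012, against cortex) fell, and each ranged widely within WT cerebellum, from 0.034 to 1.31 and from 0.162 to 2.95 CPM per kb. Without the libraries low in markers of their own region these differences against cortex were -3.55 and -2.76. Type I chains were not called between any regions.

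**Figure D3:**
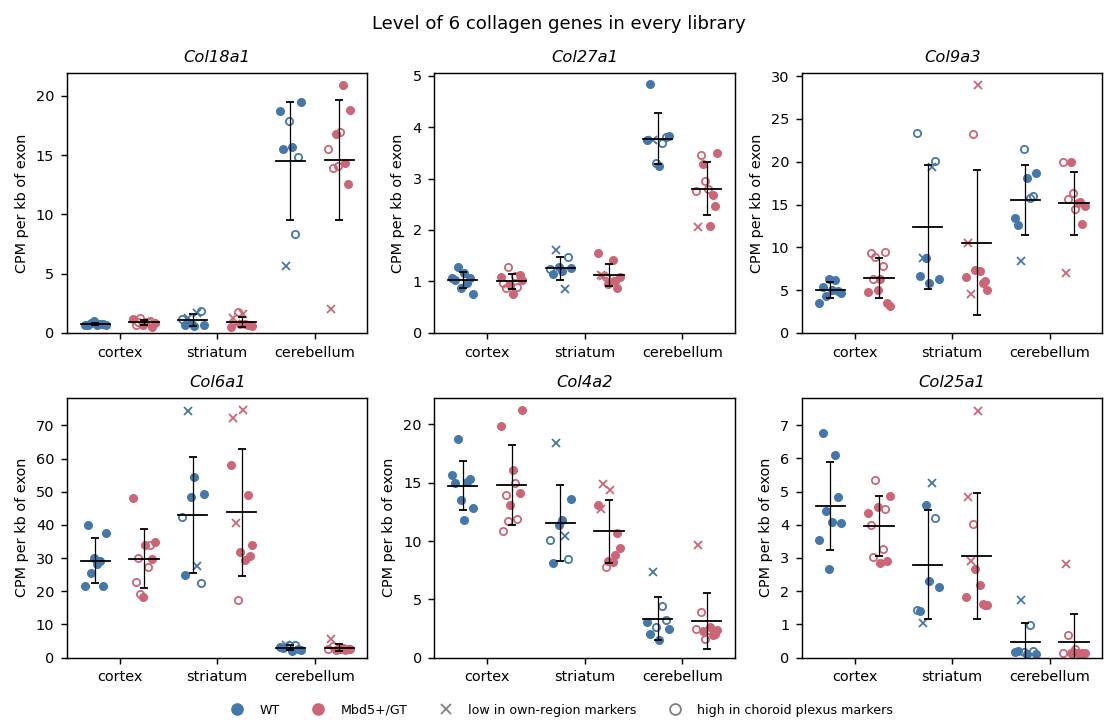
Level (CPM per kb of exon) of 6 collagen genes in each of the 54 libraries, WT in blue and Mbd5+/GT in red, with the mean (line) and SD (bar) of each group. Crosses are libraries low in markers of their own region and open circles are those high in choroid plexus markers. For Col18a1, the 2 lowest cerebellum points, at 2.02 and 5.62, are both crosses.

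FACIT chains went both ways. Col9a3, a chain of type IX collagen, was 3.09-fold higher in cerebellum than in cortex (1.63 ± 0.32, adjusted p = 2.0e-05) and not called against striatum (0.33 ± 0.31, adjusted p = 0.35), where its WT libraries ran from 5.81 to 23.3 CPM per kb. Its type IX partner Col9a2 was higher in cerebellum than in both regions (0.89 and 0.45), while Col9a1 was not called. The call of Col9a2 against striatum was lost without WT mouse M757 or M765 (adjusted p up to 0.11). Col22a1, found at tissue junctions, fell 4.19-fold and 3.65-fold, and Col14a1 and Col16a1 fell in both comparisons as well. The call of Col16a1 against cortex (-0.64 ± 0.24, adjusted p = 0.022), like that of the fibrillar Col11a2 (-0.54 ± 0.21, adjusted p = 0.026), was lost without the libraries high in choroid plexus markers (adjusted p = 0.11 and 0.15). Both calls were also lost without WT mouse M752, M757, M762 or M765, and that of Col11a2 without M751 or M759, with adjusted p up to 0.082 and 0.077. Without the libraries low in markers of their own region, however, both were stronger (-0.97 and -0.78).

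Transmembrane collagens showed the same split. Col17a1, a component of hemidesmosomes in skin, was 4.85-fold and 3.34-fold higher in cerebellum, and Col13a1, known from the neuromuscular junction, 1.88-fold and 2.58-fold higher. Col25a1, a neuronal collagen whose fragment is found in amyloid plaques, was 9.84-fold lower than in cortex (-3.30 ± 0.58, adjusted p = 3.4e-06) and 6.05-fold lower than in striatum (-2.60 ± 0.57, adjusted p = 8.8e-05). Its WT cerebellum libraries lay between 0.0949 and 1.74 CPM per kb, with a median of 0.191, and those of cortex between 2.67 and 6.77. The highest cerebellum value belonged to mouse M754, and without the libraries low in markers of their own region the differences were -4.05 and -3.31. The anchoring fibril gene Col7a1 was 2.86-fold and 2.24-fold higher in cerebellum. Of the 2 genes in no class, Col26a1 fell 5.67-fold and 4.87-fold, and Col28a1 fell 2.87-fold against cortex. Col8a2, a short-chain gene, rose 3.35-fold against cortex (1.74 ± 0.53, adjusted p = 0.0040), a call lost without the libraries high in choroid plexus markers (0.55, adjusted p = 0.064). The short-chain gene Col10a1 fell 8.64-fold against cortex, at counts so low that its call against striatum (-1.62 ± 0.68, adjusted p = 0.033) was lost with the mouse as a block (adjusted p = 0.075), without the libraries high in choroid plexus markers (adjusted p = 0.062) and without WT mouse M757, M759 or M762 (adjusted p up to 0.18).

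Cortex and striatum differed less, with 5 of 44 members higher and 8 lower in cortex (29.5%) against 47.0% of all genes called, 24.4% higher and 22.7% lower. The largest rise in cortex was Col19a1, a FACIT chain made by some interneurons, at 2.21 ± 0.93 against 0.509 ± 0.33 CPM per kb (2.12 ± 0.46, adjusted p = 2.3e-04). In cerebellum Col19a1 was higher than in striatum (1.46 ± 0.45), a call lost without WT mouse M762 (adjusted p = 0.055) and without the libraries high in choroid plexus markers (adjusted p = 0.63). Col4a5, Col4a6, Col10a1 and Col28a1 were the other members higher in cortex than in striatum. Lower in cortex were Col8a2 (-1.91 ± 0.53, adjusted p = 0.0027), Col6a3 (-1.36), Col9a3 (-1.30 ± 0.32, adjusted p = 8.2e-04), Col2a1 (-0.84), Col11a2 (-0.64), Col6a1 (-0.56), Col9a2 (-0.43) and Col27a1 (-0.30). Choroid plexus markers moved with these genes, since 5 of 9 were lower and 0 higher in cortex than in striatum, with WT sums of 241 to 552 and 247 to 7795. Ependymal and oligodendrocyte markers were also lower in cortex, 5 of 5 on each list, and the part of these cell types in the result was not tested. Without the libraries high in those markers the difference was -0.58 for Col8a2 (adjusted p = 0.067) and -0.54 for Col9a3 (adjusted p = 0.037), and 8 members were called, 3 higher and 5 lower (18.2%, against 38.8% of all genes). Without the libraries low in markers of their own region 21 were called, 12 higher and 9 lower (47.7% against 49.3%). Leaving out 1 WT mouse ended the calls of Col4a6 (M752, M757, M761 or M765), Col6a1 (M751, M754, M757 or M759), Col6a3 (M757, M761 or M762), Col9a2 (M751, M754 or M761), Col10a1 (M752, M761, M762 or M765), Col27a1 (M751, M754, M762 or M765) and Col28a1 (M751, M761 or M762), with adjusted p up to 0.15, 0.21, 0.16, 0.084, 0.095, 0.093 and 0.11. That of Col6a3 was also lost with the mouse as a block (adjusted p = 0.15).

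Genes that make, mature, bind and break down collagen, or lie beside it in the matrix, were called at about the share of all genes. Over the 6 lists, 35 of 71 genes tested were called for cerebellum against cortex (49.3%, against 55.8% of all genes), 47 for cerebellum against striatum (66.2% against 65.5%) and 36 for cortex against striatum (50.7% against 47.0%). Of 18 genes of chain synthesis and folding, 6 were higher and 5 lower in cerebellum than in cortex, 3 higher and 11 lower than in striatum, and 2 higher and 11 lower in cortex than in striatum. Plod2, a lysyl hydroxylase of collagen, was higher in cerebellum (1.04 ± 0.20 and 1.51 ± 0.20), and P4ha3, a catalytic subunit of prolyl 4-hydroxylase, and P3h2, a prolyl 3-hydroxylase, were lower (-1.64 and -1.31 against cortex, -1.65 and -0.96 against striatum). Of 12 genes of maturation and crosslinking, 3 were higher and 0 lower in cerebellum than in cortex, and 4 were higher and 3 lower than in striatum. The procollagen C-proteinases Tll1 and Bmp1 stood at 7.05-fold and 3.27-fold higher than in cortex and 12.9-fold and 4.13-fold higher than in striatum. The receptor list gave 2 higher and 2 lower of 9 tested against cortex and 3 and 3 against striatum, and the integrin chain Itga11 was lower in cerebellum (-1.69 ± 0.21 and -2.01 ± 0.21). Of 12 basement membrane partners of type IV collagen, 4 were higher and 4 lower than in cortex and 4 higher and 5 lower than in striatum, the first including Sparc (1.82 ± 0.23), Nid1 (0.86 ± 0.19), Agrn (-1.20 ± 0.13) and Lama4 (-1.02 ± 0.19). The breakdown list gave 3 higher and 2 lower of 9 against cortex, with Mmp9 at 0.87 and Timp2 at -1.48, and 2 and 2 against striatum. Of 11 fibril-associated matrix genes, 2 were higher and 2 lower than in cortex and 6 higher and 1 lower than in striatum, and Dcn, Lum and Ogn were also higher in cortex than in striatum (1.09, 1.41 and 2.13). The meningeal fibroblast list, which shares Dcn and Lum, had 3 of 10 genes higher and 1 lower in cerebellum than in cortex, 7 higher and 0 lower in cerebellum than in striatum, and 7 higher and 1 lower in cortex than in striatum, where 24.4% of all genes were higher and 22.7% lower.

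The second question was whether collagen expression differed between Mbd5+/GT and WT mice within a region. Mbd5 itself was reduced in every region, to 69.9% of the WT mean of cortex (log2 fold change -0.49 ± 0.05), 75.0% of that of striatum (-0.51 ± 0.05) and 76.9% of that of cerebellum (-0.34 ± 0.05), with adjusted p of 1.2e-04, 9.4e-05 and 0.0091. No collagen gene reached an adjusted p under 0.05 in any region by edgeR's quasi-likelihood test with surrogate variables, whereas 0.0107%, 0.00539% and 0.00551% of all genes did in cortex, striatum and cerebellum. The lowest adjusted p of a member was 0.30, 0.64 and 0.89. At an unadjusted p under 0.05 there were 5 members in cortex (5 higher, 0 lower), 3 in striatum (0 higher, 3 lower) and 3 in cerebellum (0 higher, 3 lower). By DESeq2's Wald test Col8a2 had an adjusted p of 0.043 in cortex and Col27a1 one of 0.071 in cerebellum. The background at the unadjusted threshold was 8.47% of genes in cortex (3.96% higher and 4.51% lower), 7.44% in striatum (4.24% higher and 3.20% lower) and 2.75% in cerebellum (0.964% higher and 1.78% lower), against 11.4%, 6.98% and 6.98% of the members. By sign alone, 20 of 44 members were higher in Mbd5+/GT cortex, 8 of 43 in striatum and 9 of 43 in cerebellum, with median log2 fold changes of -0.0094, -0.12 and -0.10 over members and -0.0042, -0.0099 and -0.0035 over all genes tested. The members are not independent of each other.

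**Figure D4:**
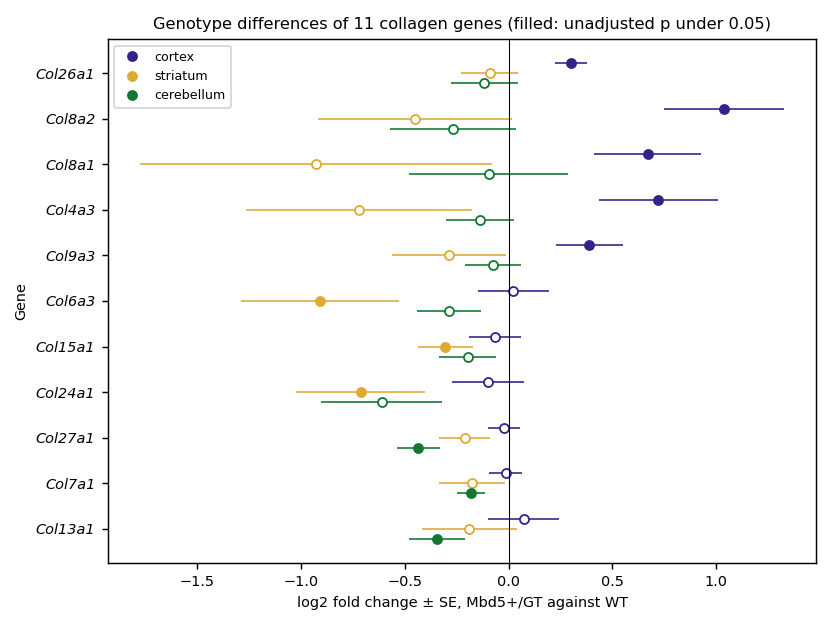
Log2 fold change, Mbd5+/GT against WT, with bars of 1 SE, of the 11 collagen genes with an unadjusted p under 0.05 in cortex, striatum or cerebellum (filled points), with their values in the other regions (open points). The 5 genes of cortex lie right of 0 there and left of 0 in striatum and cerebellum.

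In cortex the short-chain collagen Col8a2, a chain of the hexagonal lattice under endothelia, had the largest difference. Its level was 0.914 ± 0.46 CPM per kb (n = 10) in Mbd5+/GT and 0.441 ± 0.12 (n = 8) in WT cortex, with ranges of 0.460 to 1.72 and 0.254 to 0.663. All 10 Mbd5+/GT mice lay above the WT median, and the ranges overlapped. The log2 fold change was 1.04 ± 0.29 (edgeR p = 0.0027, adjusted p = 0.34), and without surrogate variables the mean log2 CPM differed by 0.91 (exact permutation p = 0.0049, two-sided, over 43758 splits, 1 of 33 such tests of 11 genes in 3 regions, the genes having been chosen by their edgeR p). The 5 Mbd5+/GT libraries high in choroid plexus markers held the 5 highest levels, 0.915 to 1.72. Without those 5 libraries the log2 fold change was 0.18 ± 0.18 (p = 0.34). Of the choroid plexus markers themselves, 8 of 9 were higher in Mbd5+/GT cortex and 0 lower, with a median log2 fold change of 1.43, and of the ependymal markers 4 of 5 were higher and 0 lower, with a median of 0.73. The part of these cell types in the result was not tested. The call held with each of the 18 mice left out in turn, at p up to 0.028.

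Col8a1, the partner chain of Col8a2, was called in cortex as well, as were Col4a3 and Col9a3. Their log2 fold changes in cortex were 0.67 ± 0.26 (p = 0.021), 0.72 ± 0.29 (p = 0.022) and 0.39 ± 0.16 (p = 0.030), and without the libraries high in choroid plexus markers 0.05, -0.32 and -0.05 (p = 0.77, 0.34 and 0.79). Over all members, leaving out those libraries gave 1 higher (Col26a1) and 3 lower (Col4a4, Col15a1 and Col17a1) of 44, where 3.30% of all genes were higher and 4.52% lower. Adjusted p-values of Col8a1, Col4a3 and Col9a3 with all libraries were 0.49, 0.50 and 0.52. Exact permutation tests without surrogate variables gave p = 0.062, 0.29 and 0.21. The call of Col8a1 was lost without Mbd5+/GT mouse M753, M755, M764 or M766 or WT mouse M754 or M765 (p up to 0.23), and those of Col4a3 and Col9a3 in 12 of 18 such fits each (p up to 0.52 and 0.35). The other 6 fits, in which the call held, left out WT mouse M757, M759 or M762 or Mbd5+/GT mouse M756, M760 or M767 for Col4a3, and WT mouse M757, M761 or M762 or Mbd5+/GT mouse M760, M767 or M768 for Col9a3.

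Col26a1, a collagen with an EMI domain, differed as much without those libraries. It stood at 1.59 ± 0.33 CPM per kb in Mbd5+/GT and 1.30 ± 0.21 in WT cortex, with ranges of 0.969 to 2.02 and 1.07 to 1.58. The log2 fold change was 0.30 ± 0.08 (p = 0.0013, adjusted p = 0.30), and 0.30 ± 0.08 without the libraries high in choroid plexus markers (p = 0.0019). The difference of mean log2 CPM without surrogate variables was 0.28 (exact permutation p = 0.059), with 8 of 10 Mbd5+/GT mice above the WT median. The sign was the same in each litter (0.50, 0.37 and 0.17), but litter 2 had 1 WT mouse. The litters hold the same mice on which the gene was chosen, so they are no separate test. The call of Col26a1 was lost without Mbd5+/GT mouse M753 or M763 or WT mouse M752 (p up to 0.14). In striatum and cerebellum its log2 fold changes were -0.09 and -0.12.

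In striatum 3 members were lower in Mbd5+/GT mice at the unadjusted threshold, the type VI chain Col6a3 (-0.91 ± 0.38, p = 0.032, adjusted p = 0.64), the multiplexin Col15a1 (-0.31 ± 0.13, p = 0.035) and the fibrillar chain Col24a1 (-0.71 ± 0.31, p = 0.038). Their levels ranged widely within both groups. Col6a3 ran from 0.203 through a median of 0.344 to 2.82 CPM per kb in WT and from 0.111 to 2.66 in Mbd5+/GT striatum. The highest libraries of both groups, WT mouse M761 and Mbd5+/GT mouse M763, were among those both low in striatal markers and high in choroid plexus markers. The choroid plexus sum of M761 (836.6) only just passed the limit (833.7), and that of M763 was 3807. A relation of Col6a3 to these markers was not tested. Exact permutation tests without surrogate variables gave p = 0.32, 0.21 and 0.40. With litter and sex in place of surrogate variables 0 members passed. The calls were lost without Mbd5+/GT mouse M755 or M764 or WT mouse M757 for Col6a3 (p up to 0.41), without these or Mbd5+/GT mouse M766 or WT mouse M765 for Col15a1 (p up to 0.099), and without Mbd5+/GT mouse M753, M758, M764, M766 or M767 or WT mouse M754, M757 or M762 for Col24a1 (p up to 0.10). Without the libraries low in striatal markers 7 of 43 members were lower (16.3%) and 0 higher, where 3.87% of all genes were lower and 1.88% higher. Without those high in choroid plexus markers 2 of 43 were lower (4.65%) and 0 higher, where 2.14% of all genes were lower and 1.22% higher.

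In cerebellum the fibrillar chain Col27a1, also among the members most raised in this region, was lower in Mbd5+/GT mice. Its level was 2.80 ± 0.51 CPM per kb (n = 10) against 3.78 ± 0.49 (n = 8) in WT, with ranges of 2.05 to 3.49 and 3.24 to 4.84. All 10 Mbd5+/GT libraries lay below the WT median, and 3 of them at or above the lowest WT library. The log2 fold change was -0.44 ± 0.10 (edgeR p = 5.9e-04, adjusted p = 0.89), and the difference of mean log2 CPM without surrogate variables was -0.44 (exact permutation p = 8.2e-04, two-sided). The sign was the same in the 3 litters (-0.25, -0.54 and -0.52), which hold the same mice on which the gene was chosen. Litter signs also agreed for the other genes called between genotypes, except Col13a1 in cerebellum (0.06 in litter 1) and Col24a1 in striatum (0.48 in litter 1). The call of Col27a1 held with each of the 18 mice left out, at p up to 0.0018. It also held without the 2 libraries low in cerebellar markers (-0.39 ± 0.11, p = 0.0020) and without those high in choroid plexus markers (-0.53 ± 0.16, p = 0.010). In striatum and cortex the log2 fold changes were -0.21 ± 0.12 (p = 0.10) and -0.02 ± 0.08 (p = 0.77). 

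Col7a1 (-0.18 ± 0.07, p = 0.015) and the transmembrane Col13a1 (-0.34 ± 0.14, p = 0.019) were the other 2 of cerebellum. Both are genes raised in cerebellum, and both were lowest in Mbd5+/GT mouse M755, at 0.752 and 0.252 CPM per kb. Exact permutation tests without surrogate variables gave p = 0.66 and 0.11, and neither passed without surrogate variables in edgeR (p = 0.63 and 0.13). The call of Col13a1 was lost without mouse M755 (p = 0.058) and that of Col7a1 without the libraries high in choroid plexus markers (p = 0.056).

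**Figure D5:**
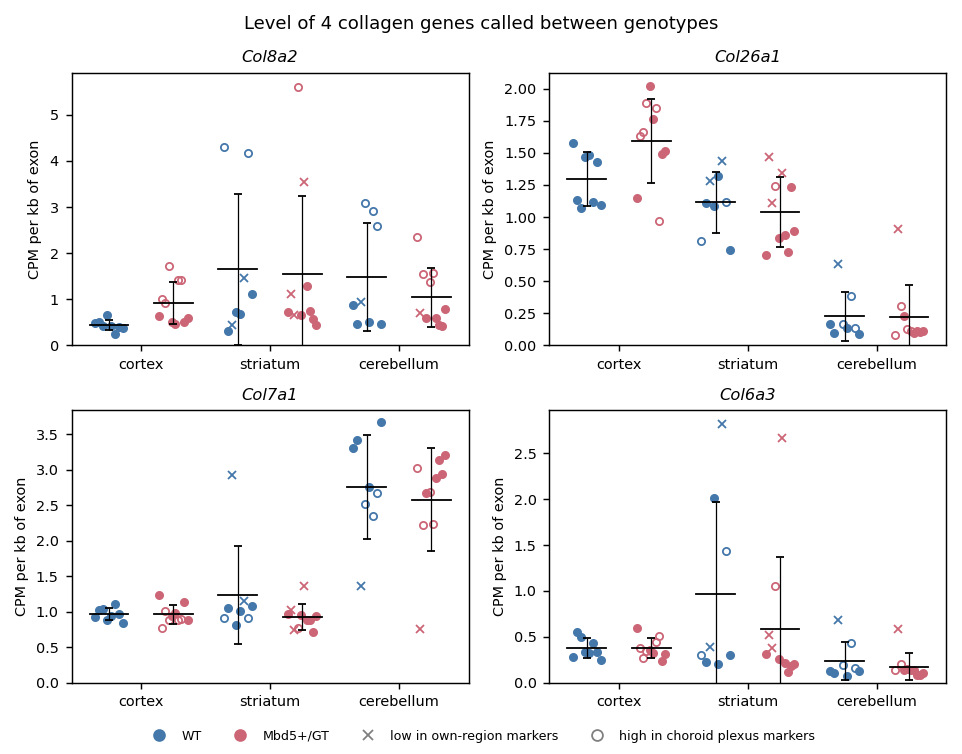
Level (CPM per kb of exon) of Col8a2, Col26a1, Col7a1 and Col6a3 in each library, WT in blue and Mbd5+/GT in red, with the mean (line) and SD (bar) of each group. Crosses are libraries low in markers of their own region and open circles those high in choroid plexus markers. In Mbd5+/GT cortex the 5 open circles of Col8a2, at 0.915 to 1.72, lie above the other points.

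The differences of the genotype effect between regions were tested in 1 fit over all 54 libraries, in which no member, and no gene of 20477, reached an adjusted p under 0.05. Between cerebellum and cortex 2 members had an unadjusted p under 0.05, Col27a1 (-0.40 ± 0.16, p = 0.017) and Col8a2 (-1.56 ± 0.69, p = 0.027), against 1.11% of all genes. With the mouse as a block Col27a1 was at -0.40 (p = 0.015) and Col8a2 at -1.17 (p = 0.080), and without litter 2 at -0.27 (p = 0.15) and -1.23 (p = 0.14). Without the libraries high in choroid plexus markers they were at -0.47 (p = 0.026) and -0.40 (p = 0.29). For the other 2 contrasts 0 members had an unadjusted p under 0.05 by edgeR or by DESeq2, against 2.68% and 4.22% of all genes by edgeR. At the adjusted threshold, the genotype effect of no member was thus shown to differ between regions.

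Between genotypes, 4 of 67 genes tested on the same 6 lists had an unadjusted p under 0.05 in cortex, 1 in striatum and 3 in cerebellum (5.97%, 1.49% and 4.48%, against 8.47%, 7.44% and 2.75% of all genes). In cortex these were P3h4 (0.23 ± 0.08) and Colgalt1 (0.08 ± 0.04) of the list of chain synthesis and folding, the laminin chain Lama5 (0.18 ± 0.08) and the proteinase Tll1 (-0.46 ± 0.18). In striatum it was Lama1 (-0.31 ± 0.11), and in cerebellum they were the oxidase Loxl3 (-0.20 ± 0.09), the nidogen Nid2 (-0.37 ± 0.17) and the receptor Lair1 (0.12 ± 0.06). The meningeal fibroblast list gave 0 called genes of 9 tested in each region, with median log2 fold changes of -0.09, -0.18 and 0.02 in cortex, striatum and cerebellum.

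The last question was whether genes whose chains are joined in 1 molecule vary together across mice. Deviations of log2 CPM from the genotype means were correlated over the 18 mice of a region for 17 pairs, which gave 51 relations with permutation p-values. Among partners Pearson's r ranged from -0.81 to 0.96. Col1a1 and Col1a2 had Pearson's r of 0.96 (cortex), 0.93 (striatum) and 0.91 (cerebellum) (Spearman's rho 0.92, 0.90 and 0.85, permutation p of r = 1e-05 each, the smallest that 100000 permutations can give, adjusted p = 5.7e-05), and 0.89, 0.87 and 0.84 without the 2 mice farthest from the median. Col4a1 and Col4a2, the head-to-head pair whose shared bases are shown above, had r of 0.93, 0.96 and 0.95 (rho 0.95, 0.92 and 0.96, permutation p of r = 1e-05 each) and 0.94, 0.93 and 0.88 without those mice. Col4a1 and the endothelial marker Cldn5 had r of 0.43, 0.06 and 0.11 (permutation p = 0.075, 0.82 and 0.68), and Col4a1 and the mural cell marker Pdgfrb 0.46, 0.12 and 0.42 (permutation p = 0.056, 0.62 and 0.078). Col4a3 and Col4a4 had r of 0.87, 0.86 and 0.96, although rho was 0.38 in striatum. Col6a1 and Col6a2 had r of 0.50, 0.92 and 0.68, whereas Col6a2 and Col6a3 had 0.07, -0.20 and 0.72. Col8a1 and Col8a2 had r of 0.63, 0.89 and 0.95, and Col8a1 and the choroid plexus marker Ttr 0.78, 0.88 and 0.90. In striatum rho was lower, 0.51 for Col8a1 and Col8a2 and 0.62 for Col8a1 and Ttr. Col9a3 and Ttr had r of 0.72, 0.87 and 0.21, and Col9a2 and Col9a3, both type IX chains, 0.42, 0.40 and 0.23. The fibrillar partners Col5a1 and Col5a2 had r of -0.48, 0.53 and -0.81, and in cerebellum the value was -0.25 without the 2 farthest mice. Col11a1 and Col11a2 had r of 0.33, -0.44 and 0.82, although in cerebellum rho was 0.21 and r was 0.38 without the 2 farthest mice. Pearson's r had an adjusted permutation p under 0.05 in 7 of 17 pairs in cortex, 12 in striatum and 11 in cerebellum, in 6, 6 and 9 without the libraries high in choroid plexus markers, and in 7, 10 and 7 without those low in markers of their own region. The 17 pairs are not all partners. They include collagens paired with the markers Dcn, Cldn5, Pdgfrb and Ttr, and Col1a2 with Col3a1, chains of different collagen types. The count of cerebellum includes the negative r of Col5a1 and Col5a2. Other gene pairs were not correlated, so no background share can be set beside these counts.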

How the data were processed

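Libraries of poly(A) RNA from cortex, striatum and cerebellum of 18 mice were analysed from the table of raw read counts per gene that the authors deposited. Per the submitters' processing notes, reads were checked with FastQC 0.10.1 and aligned with STAR 2.4.2, and the counts were those of STAR per gene. Which strand column was taken is not given in the sources used here, so reads of 13 members that share exon bases with another gene could not be assigned to a strand. All 54 sample columns were used. The 92 spike-in rows were left out, and 46574 of 47069 gene rows were matched to the GENCODE M21 annotation (GRCm38), which gave symbols, positions and exon lengths.

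Genes had to exceed 4 counts in 8 or more libraries and were tested with edgeR 4.0.16 (R 4.3.3), using TMM factors and the robust quasi-likelihood test. Genotype was tested within each region with surrogate variables from sva 3.50.0 (4 in cortex, 4 in striatum and 2 in cerebellum), over 18661, 18546 and 18160 genes. Regions were compared between WT groups, and genotype effects between regions, in 1 fit of 6 groups over 54 libraries. That fit had no mouse block, so libraries of the same mouse were treated as independent. A fit with the mouse as a block was an alternative. Of the 44 members, 44, 43 and 43 passed the filter of the genotype test, and Col10a1 did not in striatum and cerebellum. P-values were adjusted by Benjamini-Hochberg over all genes. A region difference was called at an adjusted p under 0.05 and a genotype difference at an unadjusted p under 0.05. The 11 members called between genotypes were also tested by exact permutation of log2 CPM (prior count 2). The fits were tested on simulated data with known changes, but without surrogate variables. The genotype fits with surrogate variables were thus not checked in that way. DESeq2 1.42.0 was an alternative.

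Samples of a mouse share its number in the labels and come from the same animal. Deviations from the group means correlated with a median r of 0.164 (cerebellum and cortex), 0.0618 (cerebellum and striatum) and 0.0911 (cortex and striatum) within a mouse, and -0.0103, -0.00495 and -0.00587 between mice. No 2 libraries of a group agreed within sampling noise over the 219 pairs compared. The members, gene lists and tests were chosen with earlier results of these data known. Named with values were the members called, up to 10 in each direction, the highest member of each class and up to 4 genes of each pathway list, and other members beside them were chosen after their values were seen. The limits that mark libraries low in markers of their own region (below 0.5 times the region median) or high in choroid plexus markers (above 2 times) were also set after seeing the data.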

Additional observations from a re-analysis of the deposited data

Results flagged for a closer look

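Within each group, the level of each member was searched on a log scale for a single library far from the others by Dixon's criterion. Of 260 tests, 37 passed, and chance passes about 1 in 20. Values are CPM per kb.

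The cerebellum library of Mbd5+/GT mouse M755, lowest of its region in granule and Purkinje cell markers and highest in oligodendrocyte markers, held 17 of the 37. It was the highest of its group for Col4a1 (5.50), Col4a2 (9.68), Col5a2 (1.96), Col6a1 (5.76), Col6a3 (0.582), Col11a1 (6.32), Col11a2 (12.9), Col15a1 (1.76), Col16a1 (7.49) and Col22a1 (0.225). It was the lowest for Col5a1 (0.757), Col7a1 (0.752), Col9a3 (6.995), Col13a1 (0.252), Col17a1 (0.0574), Col18a1 (2.02) and Col20a1 (1.07). Genes raised in cerebellum among these, such as Col18a1, were low in this library, and genes lowered in cerebellum, such as Col6a1, were high.

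The cerebellum library of WT mouse M754, the other one low in cerebellar markers, was the highest of its group for Col1a1 (3.42), Col11a2 (8.33) and Col15a1 (1.27) and the lowest for Col5a1 (2.26), Col7a1 (1.36) and Col17a1 (0.338). The striatum library of the same mouse was the highest for Col1a1 (5.91), Col5a2 (2.00), Col7a1 (2.92) and Col20a1 (2.69), and its cortex library for Col5a2 (1.60).

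The others were single values. In striatum, Mbd5+/GT mouse M755 was highest for Col1a1 (5.92), Mbd5+/GT mouse M763 highest for Col5a3 (2.21), WT mouse M752 lowest for Col4a6 (0.0815) and Mbd5+/GT mouse M764 lowest for Col24a1 (0.213). In cortex, Mbd5+/GT mouse M753 was highest for Col5a2 (1.69), WT mouse M757 for Col9a2 (3.59) and WT mouse M751 for Col20a1 (1.64), and Mbd5+/GT mouse M766 was lowest for Col24a1 (0.874). In cerebellum, WT mouse M752 was highest for Col27a1 (4.84).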

How the results depend on the processing

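With 1 WT mouse left out, 28 to 32 members were called for cerebellum against cortex (32 in the report), 26 to 31 for cerebellum against striatum (28) and 8 to 14 for cortex against striatum (13), the lowest without WT mouse M761. Cortex against striatum gave 21 without the libraries low in markers of their own region (47.7%, against 49.3% of all genes). It gave 8 without those high in choroid plexus markers (18.2% against 38.8%). In this section only the counts without such libraries have a share of all genes, given here or in the report. A shift in any other count is thus not a result about the members. With the mouse as a replicate block the counts were 31, 29 and 16, and beside the calls named in the report with their blocked values the block moved no count by over 1.5 times between regions.

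Genotype counts are at an unadjusted threshold. Cortex (5) gave 3 with no filter and 3 with a minimum of 10 counts in every library. Striatum (3) gave 1 with no surrogate variables, 0 where litter and sex replaced them, 1 if litter 2 was left out and 7 without the libraries low in striatal markers. Cerebellum (3) gave 5 with DESeq2 size factors, 1 without surrogate variables and 1 with litter and sex. With 1 mouse left out the ranges were 1 to 9 in cortex (1 without Mbd5+/GT mouse M753, 9 without Mbd5+/GT mouse M767), 1 to 3 in striatum (1 without Mbd5+/GT mouse M766 or WT mouse M757) and 2 to 7 in cerebellum (7 without Mbd5+/GT mouse M764). Without the libraries high in choroid plexus markers, Col4a3 (-0.32) and Col9a3 (-0.048) reversed in cortex. The cause was not tested.

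For the difference of genotype effects, cerebellum against cortex (2) gave 1 with the mouse as a replicate block and 0 without litter 2. Cortex against striatum (0) gave 1 without litter 2. It gave 2 without the libraries low in markers of their own region (4.55%, against 2.32% of all genes). Without those high in choroid plexus markers it gave 2 (4.55% against 3.02%). Correlated pairs fell from 12 to 6 in striatum without the libraries high in choroid plexus markers and from 11 to 7 in cerebellum without those low in cerebellar markers. Over single members, 78 of 118 genotype, 489 of 530 region and 8 of 12 interaction values kept their direction and side of the threshold. Members such as Col10a1, with 0 to 5 counts per WT cerebellum library, are limited by depth.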
